A study of Mus musculus with 446 samples.

Results

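The comparison asked where a high-fat diet changed gene expression differently in the liver than in the muscle of the same mouse. Each gene had a diet effect in liver and a diet effect in muscle (high-fat minus control), and the quantity tested was the liver effect minus the muscle effect, fitted on the liver-minus-muscle difference of each mouse. Of 75 high-fat and 74 control mice with both libraries, 59 and 63 were used, giving 244 of the 446 libraries of the series. A mouse was used where both libraries had at least 8000 genes at 1 TPM or more, and mouse 80 was left out. TPM is a length-corrected abundance with a fixed sum per library. The animals were male Diversity Outbred mice, whose genomes are unique mosaics of those of several founder strains. They entered at 6 weeks of age, were caged singly and ate the control diet before the study began. The 59 high-fat mice then ate a diet with 60 kcal% fat for 14 weeks, and the 63 control mice stayed on 10 kcal% fat for the same time, with animals assigned to the diets at random, per the labels. The muscle sampled is not named in the labels, and the time of day of collection is not given in the sources used here.

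Liver makes fatty acids from sugar when carbohydrate is plentiful, under the transcription factors SREBP1c and ChREBP (genes Srebf1 and Mlxipl), and exports them as triglyceride. Muscle makes little fat and mostly burns it. Fatty acids that reach either tissue can act as ligands of the PPAR family of nuclear receptors, which raise genes of fatty acid oxidation, and in muscle the kinase PDK4 then restrains the oxidation of glucose.

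Depth is unknown because TPM keep none, so the precision of a value is given by its spread over mice. The libraries used carried the markers of their own tissue at 10.1% to 21.7% of protein-coding TPM (hepatocyte markers in liver) and 14.6% to 31.1% (muscle fibre markers in muscle). The markers of the other tissue reached at most 1.504% in a liver library and 1.97% in a muscle library. In mouse 80 the library labelled liver held 26.8% muscle fibre markers and 0.0995% hepatocyte markers, and the library labelled muscle held 12.9% hepatocyte markers. Of 8 library properties none passed a test between the diets (two-sided permutation tests, lowest p = 0.161, adjusted p = 0.957 for all). They were genes detected, coding share and markers of the other tissue in each tissue, and adipocyte and slow-fibre gene sums in muscle. Levels of the own-tissue markers were not tested between the diets. The summed hepatocyte markers in liver had a median of 72418.9 scaled TPM in high-fat and 79165.5 in control mice. Muscle fibre markers in muscle had 150954 in high-fat and 164797 in control mice.

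The diet effect differed between the tissues for 581 of 10977 genes tested in both (5.29%, limma on paired differences, Benjamini-Hochberg adjusted p under 0.05). The difference was above 0 for 281 genes (2.56%) and below 0 for 300 (2.73%), and 65 genes (0.592%) differed by a fold of 1.5 or more. With TPM as deposited, not scaled, 50 genes passed, with mouse 80 kept 348 did, and with a minimum mean of 5 scaled TPM in each tissue 365 of 6048 did. Among the same genes the diet changed 1472 in liver (13.4%), with 769 higher (7.01%) and 703 lower (6.4%) on the high-fat diet. In muscle it changed 1.06% of them, with 77 higher (0.701%) and 39 lower (0.355%). The median standard error was alike, 0.0551 in liver and 0.0591 in muscle on the log2 scale. Fold changes are differences of log2(scaled TPM + 1), and the added 1 makes those of weakly expressed genes too small.

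Most of the genes with a difference had changed in liver and did not pass the test in muscle, 424 of 581 (73%). Another 120 (20.7%) passed in neither tissue alone, and 25 (4.3%) passed in muscle and not in liver. Both tissues changed in 12 of them, in opposite directions in 9 (1.5%) and in the same direction in 3 (0.5%). Seen from the other side, 61 genes (0.556% of those tested) were called in both tissues, 52 of them in the same direction and 9 (0.082% of those tested) in opposite directions.

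**Figure D1:**
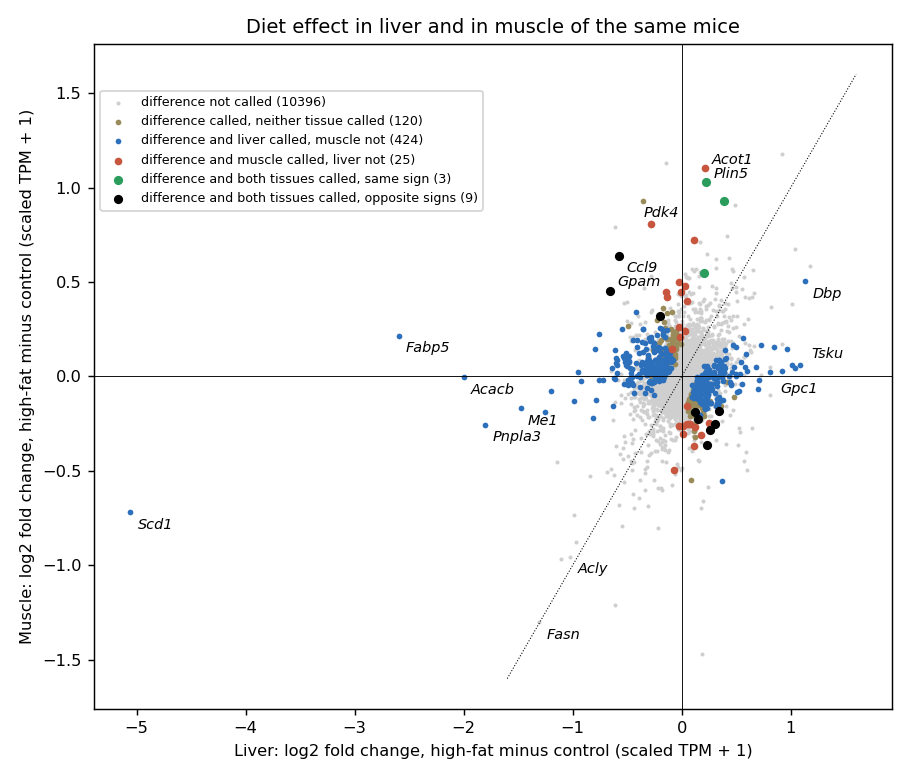
Each point is 1 of 10977 genes, with its log2 fold change (high-fat minus control) in liver on the x axis and in muscle on the y axis, coloured by which of the difference and the tissue effects passed the test, and the dotted line marks equal effects. Scd1 stands alone at the left, the 424 genes called in liver and not in muscle spread along the horizontal axis, and Fasn and Acly lie beside the dotted line.

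Of 20 genes of fatty acid synthesis 17 fell in liver and 7 in muscle, against 6.4% and 0.355% of all genes tested. Scd1 (ENSMUSG00000037071), a desaturase that turns saturated into monounsaturated fatty acids, had the largest difference of all genes tested. In liver its lowest, median and highest levels were 3.50, 42.9 and 644 scaled TPM in high-fat livers and 169, 1507 and 4694 in control livers. In muscle they were 17.3, 239 and 2264 scaled TPM in high-fat muscles and 20.1, 383 and 9949 in control muscles. In liver the ranges of the diets overlapped and no high-fat mouse exceeded the control median, whereas in muscle 21 of 59 high-fat mice exceeded it. The effect on Scd1 was -5.06 ± 0.28 in liver (SE, n = 59 and 63, limma, adjusted p = 1.96e-32) and -0.72 ± 0.32 in muscle (adjusted p = 0.372, 95% interval -1.35 to -0.09). The difference was -4.34 ± 0.41 (limma, adjusted p = 6.92e-15), and 58 of 59 high-fat mice lay below the control median of the liver-minus-muscle difference.

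**Figure D2:**
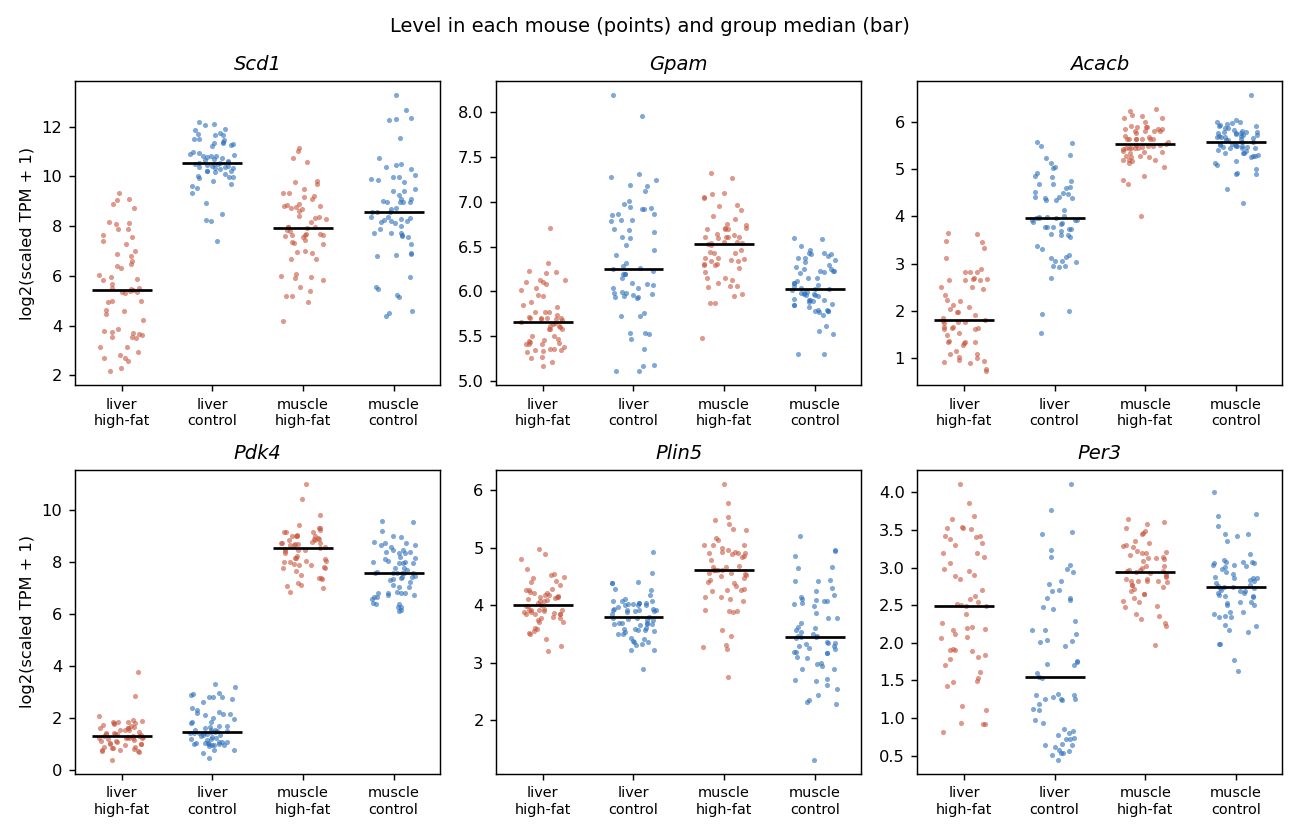
Level of 6 genes in every mouse as log2(scaled TPM + 1), with high-fat left of control within each tissue, a point for each of 59 high-fat and 63 control mice and a bar for the group median. Scd1 and Acacb are low in high-fat liver and overlap between the diets in muscle, Gpam is lower in high-fat liver and higher in high-fat muscle, and Pdk4 and Plin5 are higher in high-fat muscle.

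Of the 20 fatty acid synthesis genes, all of them tested, the difference was below 0 and called for 7 and above 0 and called for 1, with a median difference of -0.19 against 0.0083 over all genes tested. The shares called over all genes tested were 2.73% below 0 and 2.56% above 0. None of the 20 rose in liver and 1 rose in muscle. With TPM as deposited 11 fell in liver and 4 in muscle, and 6 differences were called, all below 0. Acacb, the acetyl-CoA carboxylase whose product malonyl-CoA holds back fatty acid entry into mitochondria, was at 0.656, 2.49 and 11.505 scaled TPM in high-fat livers and 1.89, 14.5 and 46.3 in control livers. In muscle its levels were 15.03, 45.4 and 76.4 scaled TPM in high-fat muscles and 18.5, 46.7 and 93.9 in control muscles, which overlapped throughout. The Acacb effect was -1.999 ± 0.15 in liver and -0.0046 ± 0.07 in muscle, a difference of -1.99 ± 0.16 (limma, adjusted p = 1.9e-19). Pnpla3, a lipid droplet protein induced with lipogenesis, differed by -1.55 ± 0.25, and 0 of 59 high-fat livers and 26 of 59 high-fat muscles exceeded its control median. Me1, the malic enzyme that supplies NADPH for synthesis, differed by -1.31 ± 0.20, with -1.48 ± 0.19 in liver and -0.17 ± 0.08 in muscle (limma, adjusted p = 0.396 in muscle). Acss2, an acetyl-CoA synthetase, differed by -1.06 ± 0.16 and the elongase Elovl5 by -0.61 ± 0.13, both named after their values were seen. Scd2, the second desaturase and also named afterwards, was the member with a difference above 0 (0.42 ± 0.14, limma, adjusted p = 0.0487), and it fell in muscle (-0.50 ± 0.13) and had -0.07 ± 0.05 in liver. Its call was lost in 10 of 18 alternatives, among them the fit without the mouse as block (limma, adjusted p = 0.061).

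Fasn, Acly and Thrsp of the same pathway fell in both tissues, and no difference between the tissues was detected. Fasn, the fatty acid synthase, was at 10.6, 71.5 and 209 scaled TPM in high-fat livers and 20.2, 213 and 569 in control livers. In muscle it was at 3.15, 12.5 and 69.05 scaled TPM in high-fat muscles and 2.97, 30.3 and 1249.8 in control muscles, and 7 of 59 high-fat muscles exceeded the control median, against 0 of 59 high-fat livers. Its effects were -1.31 ± 0.16 and -1.30 ± 0.25, with a difference of -0.0079 ± 0.29 (limma, adjusted p = 0.994, 95% interval -0.58 to 0.56). Acly, which makes cytosolic acetyl-CoA from citrate, had -1.02 ± 0.13 in liver and -0.96 ± 0.20 in muscle (difference -0.07 ± 0.23, interval -0.52 to 0.39). Thrsp, a lipogenic regulator, had -0.62 ± 0.21 and -1.21 ± 0.22 (difference 0.60 ± 0.28, interval 0.04 to 1.15). These 3 were named after their values were seen. The transcription factor Srebf1 fell in both tissues (-0.44 ± 0.11 and -0.33 ± 0.09, difference -0.11 ± 0.12, interval -0.34 to 0.12), and Mlxipl fell in liver (-0.34 ± 0.05) and had -0.15 ± 0.08 in muscle, with a difference of -0.20 ± 0.09 (interval -0.38 to -0.013).

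Synthesis genes are also adipocyte genes, and muscle samples held adipocyte RNA: the summed level of 5 adipocyte genes in muscle (Adipoq, Cfd, Plin1, Retn and Lep) was 14.2, 255 and 1315 scaled TPM (lowest, median and highest) in high-fat mice and 8.80, 263 and 2270 in control mice (two-sided permutation p = 0.665, adjusted p = 0.957 over 8 library tests). With that sum as a covariate, an alternative chosen after seeing the data, the muscle effects were -1.22 for Fasn, -0.90 for Acly and -0.60 for Scd1 (limma, adjusted p = 0.0139 for Scd1, which then passed in muscle), and the Scd1 difference was -4.46. The difference was then called below 0 for 7 members of the synthesis list and above 0 for 1. In bulk tissue, fewer cells of a type and less RNA per cell cannot be told apart.

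Changes in opposite directions in the 2 tissues were called for 9 genes, 3 of them lower in liver and higher in muscle. Such genes numbered 1 with TPM as deposited, 5 with mouse 80 kept, 5 with no expression minimum, 15 without livers whose label carries a second number and 24 with limma's array weights. Gpam (ENSMUSG00000024978), the mitochondrial acyltransferase that starts triglyceride synthesis and a member of the synthesis list, was at 35.1, 49.6 and 103.6 scaled TPM in high-fat livers and 33.5, 74.8 and 292 in control livers. Its muscle levels were 43.8, 91.3 and 159 scaled TPM in high-fat muscles and 38.3, 64.04 and 95.4 in control muscles. The high-fat mice were the lower ones in liver, where 2 of 59 exceeded the control median, and the higher ones in muscle, where 54 of 59 did, with overlapping ranges in both. The effects were -0.66 ± 0.09 in liver (limma, adjusted p = 2.7e-08) and 0.45 ± 0.06 in muscle (adjusted p = 2.23e-08), a difference of -1.11 ± 0.11 (adjusted p = 7.49e-14). Of the high-fat mice 58 of 59 lay below the control median of the liver-minus-muscle difference. The chemokine Ccl9 had -0.57 ± 0.10 in liver and 0.64 ± 0.15 in muscle, and Rhobtb1 had -0.20 ± 0.06 and 0.32 ± 0.08.

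The other 6 rose in liver and fell in muscle by smaller amounts. Gstk1, a glutathione transferase of mitochondria and peroxisomes, was at 57.6, 104.97 and 289 scaled TPM in high-fat livers and 52.2, 89.4 and 219 in control livers. The muscle values were 17.97, 28.6 and 47.6 scaled TPM in high-fat muscles and 16.6, 33.6 and 63.6 in control muscles. The control median was exceeded in 43 of 59 high-fat livers and 12 of 59 high-fat muscles, and its difference was 0.55 ± 0.09 (limma, adjusted p = 4.4e-06). Aimp2, a scaffold protein of the tRNA synthetase complex, differed by 0.59 ± 0.12, Celf2, a regulator of splicing, by 0.52 ± 0.08, and Isoc2a, an isochorismatase-domain protein, by 0.38 ± 0.06. Ppm1k, the phosphatase that activates the branched-chain keto acid dehydrogenase, differed by 0.54 ± 0.10, with 0.26 ± 0.07 in liver and -0.28 ± 0.07 in muscle. Aldh6a1, an enzyme of valine breakdown, differed by 0.31 ± 0.05, with 0.12 ± 0.04 in liver (limma, adjusted p = 0.0221) and -0.19 ± 0.05 in muscle (adjusted p = 0.0404). For all 9, at least 49 of 59 high-fat mice lay beyond the control median of the liver-minus-muscle difference in the called direction. These counts describe the values that were tested and are no separate test.

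Most genes of mitochondrial fatty acid oxidation rose in both tissues, and 1 difference between the tissues was called. Of 22 genes, all tested, 18 rose in liver and 15 in muscle, against 7.01% and 0.701% of all genes tested. None of the 22 fell in either tissue, and the median effect was 0.24 in liver and 0.30 in muscle. With TPM as deposited 4 rose in liver and 5 in muscle, with medians of 0.22 and 0.28. The difference passed for 1 of the 22 genes, a share near the 5.29% of all genes tested. At an unadjusted p under 0.05 (limma) 6 of the 22 differed. The 22 differences ran from -0.34 to 0.22 with a median of -0.0012. Cpt1a, the outer-membrane carnitine palmitoyltransferase that admits fatty acids to mitochondria, was at 53.7, 91.1 and 149.5 scaled TPM in high-fat livers and 39.7, 63.6 and 121.9 in control livers. Muscle showed 4.12, 7.15 and 16.8 scaled TPM in high-fat muscles and 2.55, 5.43 and 14.3 in control muscles, and 57 of 59 high-fat livers and 50 of 59 high-fat muscles exceeded the control median. Its effects were 0.46 ± 0.05 and 0.47 ± 0.07, with a difference of -0.0099 ± 0.08 (limma, adjusted p = 0.963, 95% interval -0.16 to 0.14). Cpt1b, the muscle form, had -0.07 ± 0.11 in liver, where its median level was near 1 scaled TPM, and 0.20 ± 0.07 in muscle, and neither passed. The inner-membrane enzyme Cpt2 rose by 0.51 and 0.32 (difference interval 0.03 to 0.34) and the carnitine carrier Slc25a20 by 0.42 and 0.38 (interval -0.10 to 0.19), both named after their values were seen. Acadl, a long-chain acyl-CoA dehydrogenase, was the member that differed, with 0.21 ± 0.05 in liver and 0.55 ± 0.09 in muscle (difference -0.34 ± 0.09, limma, adjusted p = 0.0129).

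Several other PPAR targets rose more in muscle. The list of peroxisomal oxidation and PPAR target genes had 20 of 28 members tested. Of these 11 rose in liver and 10 in muscle, against 7.01% and 0.701% of all genes tested. The difference was called below 0 for 5 and above 0 for 3, against 2.73% and 2.56% of all genes tested. Plin5 (ENSMUSG00000011305), which coats lipid droplets and ties them to mitochondria, belongs to the lipid droplet list and was at 8.17, 15.04 and 30.6 scaled TPM in high-fat livers and 6.43, 12.9 and 29.5 in control livers. Levels in muscle were 5.70, 23.3 and 68.2 scaled TPM in high-fat muscles and 1.48, 9.95 and 35.9 in control muscles. High-fat mice were the higher ones in both tissues and more so in muscle, where 55 of 59 exceeded the control median. The effects were 0.22 ± 0.06 in liver (limma, adjusted p = 0.0101) and 1.03 ± 0.13 in muscle (adjusted p = 3.83e-09), a difference of -0.81 ± 0.13 (adjusted p = 4.88e-06).

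Pdk4 (ENSMUSG00000019577), which inhibits pyruvate dehydrogenase, was at 0.325, 1.51 and 12.6 scaled TPM in high-fat livers and 0.411, 1.79 and 8.95 in control livers. In muscle it was at 113.2, 373 and 2068 scaled TPM in high-fat muscles and 68.3, 189 and 754 in control muscles, and 50 of 59 high-fat muscles and 21 of 59 high-fat livers exceeded the control median. It rose in muscle (0.81 ± 0.15, limma, adjusted p = 0.000222) and had -0.28 ± 0.11 in liver (adjusted p = 0.0765), a difference of -1.09 ± 0.18 (adjusted p = 1.04e-05). Mlycd, which degrades malonyl-CoA, rose in muscle by 0.48 and had 0.03 ± 0.04 in liver (difference -0.45 ± 0.08, adjusted p = 3.03e-05). The acyl-CoA thioesterases Acot1 and Acot2, named after their values were seen, differed by -0.89 ± 0.17 and -0.61 ± 0.11. They are close paralogs that can share reads, so the split between them is uncertain. Both had medians near the lower limit of the test in 1 tissue. Acot2 had 0.967 scaled TPM in high-fat and 0.934 in control livers, and Acot1 had 3.08 in high-fat and 0.781 in control muscles. The carrier Slc25a34, also named afterwards, rose in both tissues (0.39 ± 0.06 and 0.93 ± 0.13). The members that rose more in liver were Aldh3a2, a fatty aldehyde dehydrogenase (0.89 ± 0.12, limma, adjusted p = 3.95e-08), and, named afterwards, the peroxisomal thioesterase Acot8 (0.28 ± 0.08) and thiolase Acaa1a (0.34 ± 0.10). Aldh3a2 was at 20.5, 66.6 and 198 scaled TPM in high-fat livers and 11.9, 36.7 and 102.6 in control livers. Its muscle levels were 5.94, 7.79 and 19.1 scaled TPM in high-fat muscles and 5.42, 7.94 and 11.2 in control muscles, with no diet effect called there.

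**Figure D3:**
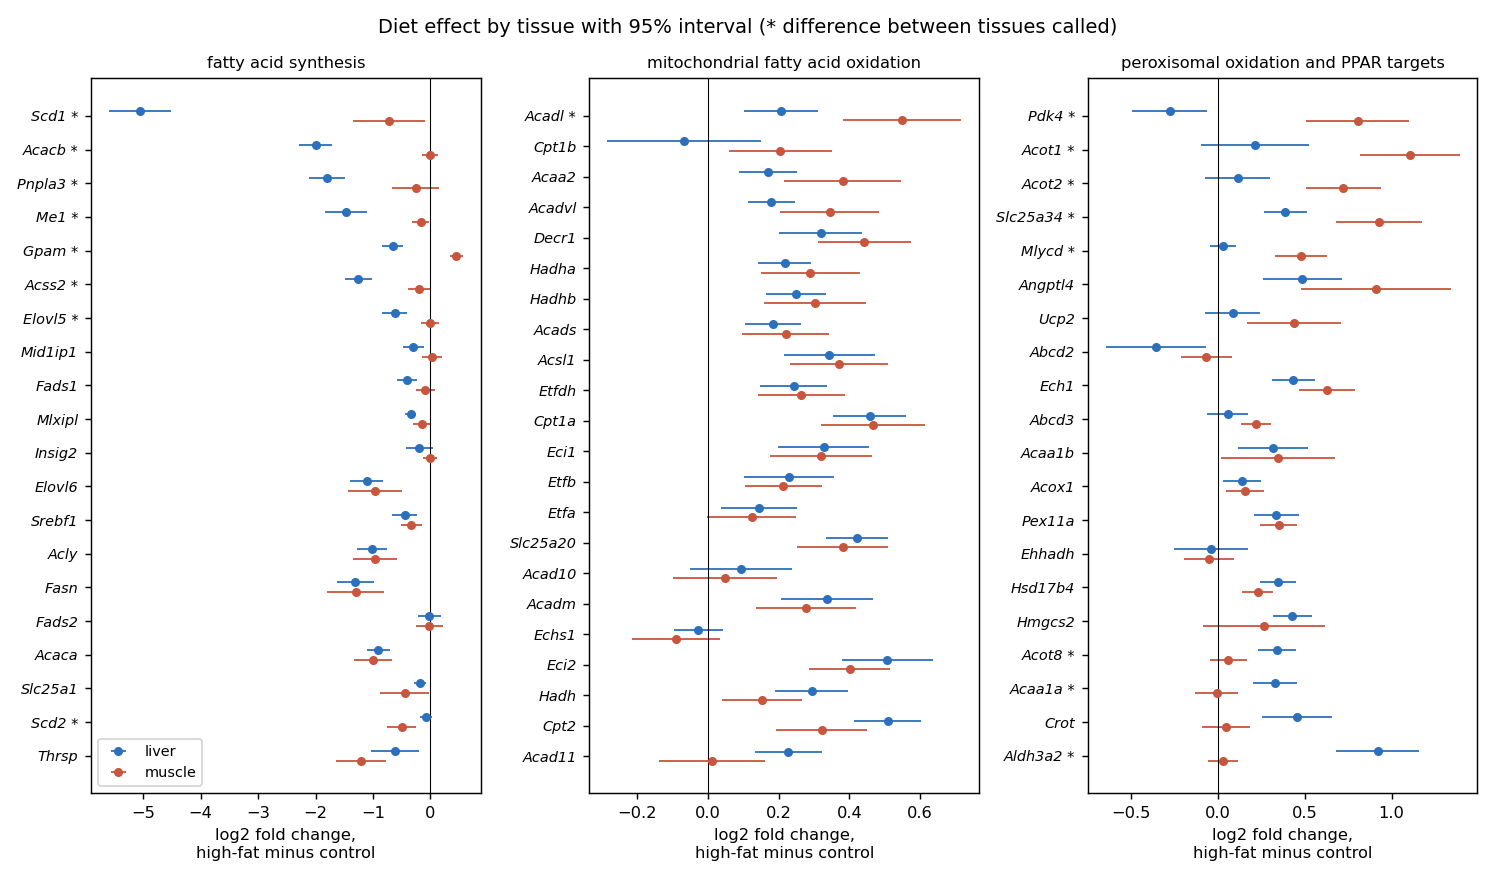
Diet effect in liver and in muscle (log2 fold change, high-fat minus control, with 95% interval) for the tested genes of 3 lists, sorted by the difference, with an asterisk where the difference passed the test. Liver lies far below muscle at the top of the synthesis panel, the 2 tissues run together through the mitochondrial panel, and muscle lies above liver at the top of the peroxisomal and PPAR panel.

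Slow, oxidative fibres express many of these genes. The summed level of 6 slow-fibre genes (Myh7, Tnnt1, Tnni1, Tnnc1, Myl2 and Myl3) in muscle was 2.82, 1216 and 10367 scaled TPM (lowest, median and highest) in high-fat mice and 10.5, 845 and 11562 in control mice (two-sided permutation p = 0.161). That sum was also used as a covariate, chosen after seeing the data. The muscle effects were then 0.95 for Plin5, 0.78 for Pdk4, 0.46 for Mlycd and 0.51 for Acadl, and their differences passed. The differences of Scd2, Dbp and Hsph1 did not pass with it (limma, adjusted p = 0.0905, 0.0644 and 0.0612). The part of fibre type in these values was not tested. The mitochondrial oxidation list then had 13 members up in muscle, and the synthesis list 5 down.

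Some genes that bring fatty acids into cells fell in liver, and none passed as lower in muscle. Of 17 genes of fatty acid uptake and binding 11 were tested, of which 5 fell and 2 rose in liver and 3 rose in muscle. The difference was called for 4, all below 0 (median difference -0.23), against 2.73% of all genes tested. In liver 6.4% of all genes tested fell and 7.01% rose, and in muscle 0.701% rose. With TPM as deposited 3 fell in liver, none passed in muscle, and 2 differences were called. Fabp5, a fatty acid binding protein, fell in liver by 2.59 on the log2 scale and had 0.21 ± 0.18 in muscle (limma, adjusted p = 0.742), a difference of -2.81 ± 0.28 (adjusted p = 7.49e-14). For this gene 58 of 59 high-fat mice lay below the control median of the liver-minus-muscle difference. Its median was 7.32 scaled TPM in high-fat livers and 42.8 in control livers, while high-fat muscles had a median of 14.9 and control muscles 11.4. The acyl-CoA synthetase Acsl5 was at 62.1, 94.2 and 164 scaled TPM in high-fat livers and 79.4, 145.4 and 234 in control livers, and its difference was -0.76 ± 0.12. Lpl, the lipoprotein lipase, is a muscle and adipose gene with a low level in liver, where it fell to a median of 2.94 scaled TPM, against 5.31 in control livers. Its muscle medians were 243 in high-fat and 223 in control mice, and the difference was -0.68 ± 0.17 (limma, adjusted p = 0.00468). The fourth was Acsl4, another acyl-CoA synthetase named after its values were seen (-0.29 ± 0.09, limma, adjusted p = 0.0616 without the mouse as block). Of 15 lipid droplet genes tested, 6 rose and 1 fell in liver, 2 rose in muscle, and 2 differed: Plin5 above, and Fitm1, which helps form droplets, with 0.71 ± 0.20 in liver and -0.02 ± 0.07 in muscle (difference 0.73 ± 0.22, adjusted p = 0.0285).

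Part of the cholesterol genes fell in liver, and none passed as lower in muscle. Of 25 genes of cholesterol synthesis and uptake 24 were tested, of which 8 fell in liver, against 6.4% of all genes tested. None of the 24 passed as lower in muscle, where 1 rose, against 0.701% of all genes tested. The difference was called for 4, all below 0 (median difference -0.28), against 2.73% of all genes tested. With TPM as deposited 5 fell in liver and 2 differences were called. Pmvk, the phosphomevalonate kinase, was at 2.92, 16.7 and 44.3 scaled TPM in high-fat livers and 8.67, 34.96 and 76.8 in control livers. The muscle values were 5.83, 10.6 and 22.04 scaled TPM in high-fat muscles and 6.05, 12.1 and 51.1 in control muscles, and the difference was -0.86 ± 0.15 (limma, adjusted p = 1.28e-05). The sterol desaturase Sc5d differed by -0.68 ± 0.11 and the sterol reductase Tm7sf2 by -0.47 ± 0.12. Fdps, the farnesyl diphosphate synthase named after its values were seen, differed by -0.70 ± 0.18.

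Some genes at the entry of pyruvate into mitochondria changed in liver, where 7.01% of all genes tested rose and 6.4% fell. Of 11 tested genes of pyruvate dehydrogenase control, 3 fell and 2 rose in liver, none passed in muscle, and 3 differed, against 5.29% of all genes tested. Pdk4, which rose in muscle, is counted in the PPAR target list and not in this one. Dlat, the acetyltransferase subunit, was at 7.19, 15.9 and 24.3 scaled TPM in high-fat livers and 13.2, 21.3 and 35.8 in control livers. Muscle showed 45.3, 131.1 and 201 scaled TPM in high-fat muscles and 57.4, 126.3 and 182 in control muscles, and its difference was -0.48 ± 0.08 (limma, adjusted p = 1.55e-05), with 4 of 59 high-fat livers above the control median. The kinase Pdk1 differed by -0.60 ± 0.10 and fell in liver, where Pdk4 did not pass. The activating phosphatase Pdp2 rose in liver and differed by 0.29 ± 0.07. In the glycolysis list 2 of 21 tested genes differed, 1 above 0 and 1 below 0. The one above 0 was Ldha, lactate dehydrogenase A (0.35 ± 0.09). Of 10 genes of gluconeogenesis and glycogen 1 rose and 4 fell in liver and none passed in muscle. The glycogen branching enzyme Gbe1 was the 1 that differed, by -0.31 ± 0.09 (limma, adjusted p = 0.0577 without the mouse as block).

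In the insulin signalling list 3 of 17 tested genes differed, against 5.29% of all genes tested. Tbc1d1, which controls the movement of the glucose transporter GLUT4 in muscle, rose there by 0.45 and had -0.01 ± 0.06 in liver (difference -0.46 ± 0.13, limma, adjusted p = 0.0179). Grb14, an adaptor that inhibits the insulin receptor, differed by -0.43 ± 0.12 and passed in neither tissue alone. Pik3r1, the regulatory subunit of PI3-kinase, rose in liver and differed by 0.25 ± 0.08 (limma, adjusted p = 0.082 without the mouse as block). Of 16 tricarboxylic acid cycle genes 1 differed, a share near the 5.29% of all genes tested. It was the citrate synthase Cs (-0.25 ± 0.07), which fell in liver. None of 29 nuclear electron transport genes passed (limma, 0 of 29 also at an unadjusted p under 0.05), and 28 of the 29 differences were below 0, with a median of -0.05.

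Of 17 clock genes tested, 8 rose in liver and none passed as higher in muscle, against 7.01% and 0.701% of all genes tested. The core clock is a loop in which BMAL1 (gene Arntl) and CLOCK bind E-box sequences and drive their own repressors and a set of output factors that bind D-box sequences. Of the 17, 1 fell in liver and 1 in muscle. The difference passed above 0 for 5 and below 0 for none (median difference 0.11), against 2.56% and 2.73% of all genes tested. With TPM as deposited 5 rose in liver, none passed in muscle, and 1 difference was called. Per3, a period protein, was at 0.756, 4.62 and 16.3 scaled TPM in high-fat livers and 0.358, 1.91 and 16.3 in control livers. Levels in muscle were 2.91, 6.70 and 11.498 scaled TPM in high-fat muscles and 2.07, 5.71 and 15.1 in control muscles. The diets overlapped in both tissues, and 49 of 59 high-fat livers and 43 of 59 high-fat muscles exceeded the control median. The effect was 0.73 ± 0.16 in liver and 0.17 ± 0.08 in muscle (limma, adjusted p = 0.375), a difference of 0.56 ± 0.12 (adjusted p = 0.00137).

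The output factors Dbp and Tef and the nuclear receptors Nr1d1 and Nr1d2 followed the same order. Dbp had 1.13 ± 0.29 in liver and 0.50 ± 0.17 in muscle (difference 0.63 ± 0.20, limma, adjusted p = 0.0396), and the difference did not pass in 8 of 18 alternatives, among them the fit without the mouse as block (adjusted p = 0.341). Its median was 13.2 scaled TPM in high-fat livers and 3.10 in control livers while the highest values were 49.8 in high-fat livers and 56.7 in control livers. Tef was at 16.7, 38.4 and 71.7 scaled TPM in high-fat livers and 7.55, 22.02 and 77.8 in control livers, and its difference was 0.47 ± 0.12 (adjusted p = 0.00724). The repressor Nr1d1 differed by 0.50 ± 0.13 and Nr1d2, named after its values were seen, by 0.34 ± 0.10 (adjusted p = 0.124 without the mouse as block). Nr1d1 overlaps Thra on the other strand, and whether the counting used strand is not given in the sources used here. Arntl fell in both tissues (-0.46 ± 0.15 and -0.35 ± 0.10), with a difference of -0.11 ± 0.09 (limma, adjusted p = 0.599, 95% interval -0.29 to 0.07). The list holds genes that peak at different times of day, and the part of collection time in these values was not tested.

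The promoters of Per3 and Tef are shown because they are the called clock genes with a match to the sequences through which the clock acts, searched on both strands of the 250 bases before each start in the RefSeq table (GRCm38.p6). All 5 called genes were in that table. Capitals mark the motif, the E-box CACGTG in Tef and the D-box TTATGTAA in Per3. Per3 lies on the minus strand at chr4:151044666-151044915, and Tef has 2 starts on the plus strand, at chr15:81802423-81802672 and chr15:81811164-81811413.
Per3: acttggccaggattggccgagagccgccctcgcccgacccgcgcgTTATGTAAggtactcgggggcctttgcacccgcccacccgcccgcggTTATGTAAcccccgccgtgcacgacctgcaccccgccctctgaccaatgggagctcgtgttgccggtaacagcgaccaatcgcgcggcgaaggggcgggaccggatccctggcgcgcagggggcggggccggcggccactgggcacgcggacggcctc
Tef, first start: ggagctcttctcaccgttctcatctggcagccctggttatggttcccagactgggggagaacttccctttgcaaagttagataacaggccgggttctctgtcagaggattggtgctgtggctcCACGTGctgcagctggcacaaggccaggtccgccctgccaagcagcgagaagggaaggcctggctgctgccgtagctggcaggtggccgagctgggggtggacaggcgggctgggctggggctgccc
Tef, second start: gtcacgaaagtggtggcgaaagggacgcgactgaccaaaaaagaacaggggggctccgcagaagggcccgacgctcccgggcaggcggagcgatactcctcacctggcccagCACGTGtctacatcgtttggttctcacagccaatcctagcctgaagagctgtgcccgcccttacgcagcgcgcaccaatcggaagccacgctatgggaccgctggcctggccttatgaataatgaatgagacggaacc
Per3 had 2 D-box matches, and each Tef window had 1 E-box match. Over all 32851 promoters of the table, 6.02% held the E-box and 0.819% the D-box. A match is a description of these letters and not a measured binding site.

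Some genes of protein making and folding also changed in liver, where 7.01% of all genes tested rose and 6.4% fell. In muscle 0.701% rose and 0.355% fell. Of 30 ribosomal protein genes tested, 24 fell in liver and none passed in muscle, and 29 of 30 differences were below 0 (median -0.11), of which 3 passed: Rps19 (-0.22 ± 0.06), Rps3 (-0.21 ± 0.06) and Rps9 (-0.16 ± 0.04). None of these 3 passed without the mouse as block (limma, adjusted p = 0.0634, 0.055 and 0.125), and with TPM as deposited no ribosomal gene passed in liver, where the median effect was -0.19, against -0.17 when scaled. Such genes have many near-identical copies in the genome, and reads shared with them make these values uncertain. Of 21 endoplasmic reticulum stress genes 8 rose in liver and 2 in muscle, and 1 differed, Creld2, a secreted folding factor. Creld2 was at 12.1, 78.96 and 192 scaled TPM in high-fat livers and 10.8, 42.8 and 147.1 in control livers. In muscle it was at 3.67, 7.08 and 11.487 scaled TPM in high-fat muscles and 4.08, 6.65 and 14.5 in control muscles, and its difference was 0.63 ± 0.14 (limma, adjusted p = 0.00221). Of 17 heat shock genes 7 rose in liver and none in muscle, and the cochaperone Hsph1 differed by 0.31 ± 0.10 (adjusted p = 0.0475, and 0.237 without the mouse as block). Among 12 glucocorticoid targets Ddit4, an inhibitor of mTORC1, fell in liver and differed by -0.76 ± 0.16, and the transcription factor Klf9 rose in liver and differed by 0.24 ± 0.07 (limma, adjusted p = 0.1 without the mouse as block). Of 15 antioxidant genes the catalase Cat rose in muscle by 0.40 and had 0.05 ± 0.04 in liver (difference -0.35 ± 0.08, limma, adjusted p = 0.00227). With 1 called difference each, the endoplasmic reticulum stress, heat shock and antioxidant lists were near the 5.29% called over all genes tested.

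**Figure D4:**
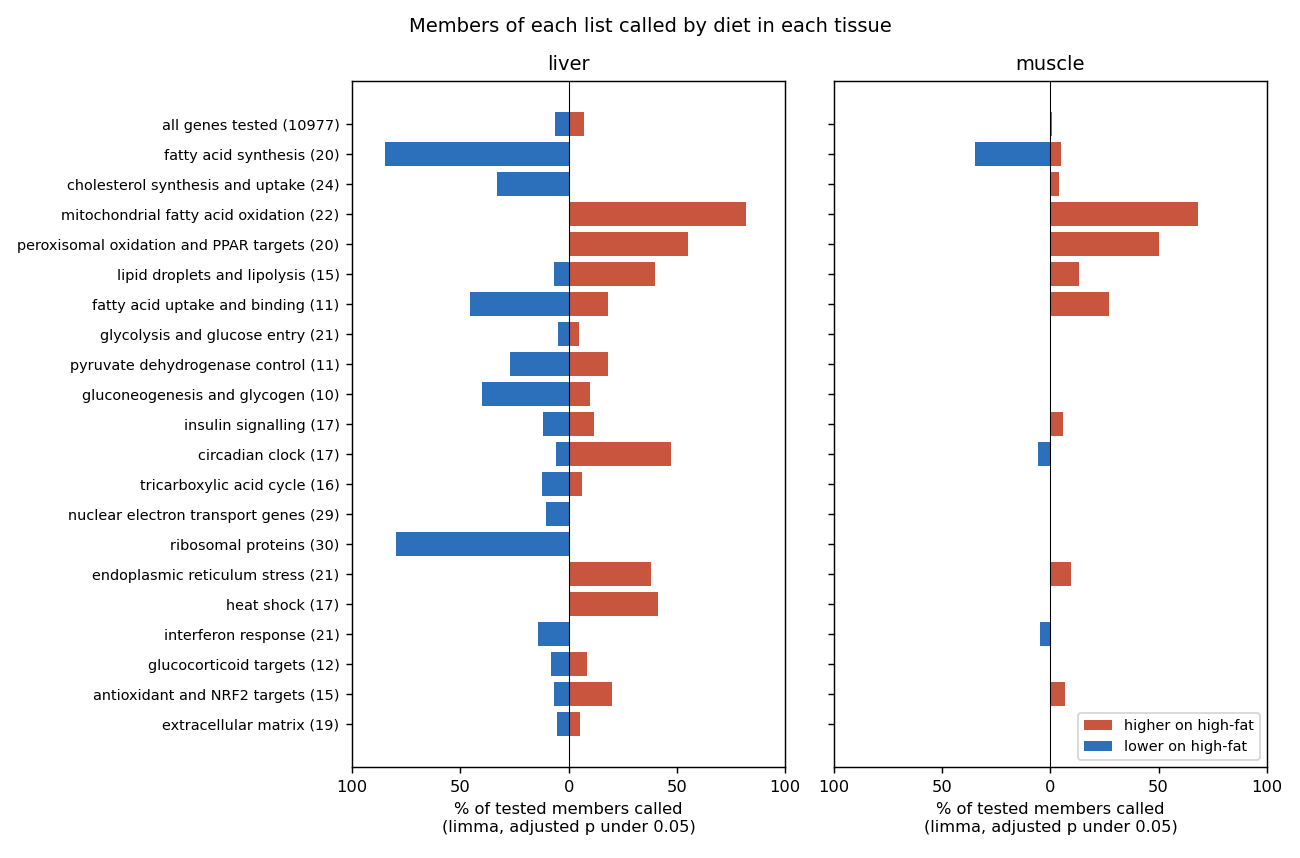
Share of the tested members of each list that passed the test in liver (left) and in muscle (right), with members higher on high-fat to the right of 0 and members lower on high-fat to the left, and the number tested in brackets. Synthesis and ribosomal genes reach furthest to the left in liver, and mitochondrial oxidation reaches furthest to the right in both tissues.

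Among genes whose mean reached 5 scaled TPM in either tissue, predicted and clone names left out, several of the 10 with the largest positive differences rose in liver. Tsku, a secreted proteoglycan made by liver, was at 4.85, 20.6 and 76.9 scaled TPM in high-fat livers and 0.196, 8.95 and 27.7 in control livers. Its muscle levels were 0.551, 1.28 and 5.90 scaled TPM in high-fat muscles and 0, 1.09 and 6.06 in control muscles, near the lower limit of the test, and its difference was 1.03 ± 0.18 (limma, adjusted p = 2.05e-05), the largest positive one among the genes named by rule. Gpc1, a glypican of the cell surface, was at 1.17, 5.22 and 16.1 scaled TPM in high-fat livers and 0.0773, 1.63 and 10.2 in control livers. It had far higher levels in muscle, with medians of 119.8 scaled TPM in high-fat and 118.96 in control mice, and a difference of 0.99 ± 0.15, and 58 of 59 high-fat livers exceeded the control median. Alas1, the rate-limiting enzyme of heme synthesis, differed by 0.95 ± 0.19, with 1.01 ± 0.19 in liver and 0.06 ± 0.06 in muscle. Oat, the ornithine aminotransferase, differed by 0.77 ± 0.14. The carboxylesterase Ces2c differed by 0.82 ± 0.19 and the cytochrome Cyp2e1 by 0.92 ± 0.25, and both belong to families whose members can share reads. The muscle medians of Ces2c were 1.35 scaled TPM in high-fat and 0.979 in control mice, near the lower limit of the test. Cyp2e1 is a hepatocyte marker, and its level in muscle was 1.24, 16.98 and 347 scaled TPM in high-fat muscles and 1.19, 27.2 and 154 in control muscles, beside hepatocyte markers of up to 1.97% of coding TPM in a muscle library, and the part of such RNA in its muscle value was not tested. The noncoding RNAs Meg3 and Rian, which come from the same imprinted locus, rose in liver by 0.81 and 0.85, and differed by 0.78 ± 0.21 and 0.69 ± 0.22 (limma, adjusted p = 0.0104 and 0.0427), of which Rian did not pass without the mouse as block (adjusted p = 0.0547). Their median level was 1.599 and 2.42 scaled TPM in high-fat livers and 0.692 and 0.992 in control livers. Among the negative differences, the retinal reductase Rdh11 differed by -1.12 ± 0.15, with -1.20 ± 0.14 in liver and -0.08 ± 0.07 in muscle.

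Ccl9 and Ifi27l2a were among the 10 largest negative differences under the same minimum. Ccl9, a chemokine of myeloid cells, was at 9.69, 33.7 and 81.2 scaled TPM in high-fat livers and 16.2, 49.9 and 107.2 in control livers. The muscle values were 1.81, 7.70 and 46.6 scaled TPM in high-fat muscles and 0.309, 4.92 and 25.6 in control muscles. High-fat mice were the lower ones in liver, with 10 of 59 above the control median, and the higher ones in muscle, with 47 of 59 above it. The difference was -1.21 ± 0.18 (limma, adjusted p = 2.65e-07). Ifi27l2a, an interferon-induced gene, had -0.36 ± 0.20 in liver and 0.93 ± 0.29 in muscle, which did not pass alone, and a difference of -1.29 ± 0.32 (adjusted p = 0.00611). Of 21 interferon response genes 12 differences were above 0 and 9 below 0 (median 0.03), and 1 was called, the antiviral membrane protein Bst2 (-0.35 ± 0.10, limma, adjusted p = 0.0952 without the mouse as block), which fell in liver. Of 19 extracellular matrix genes 18 had a difference below 0, and the collagen Col15a1 was called (-0.47 ± 0.12). The interferon and matrix lists, with 1 called difference each, were near the 5.29% called over all genes tested.

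Ccl9 is expressed by macrophages. Of 19 macrophage markers 12 were tested, all 12 differences were below 0 with a median of -0.37, and 1 was called, the surface receptor Adgre1 (-0.45 ± 0.13, limma, adjusted p = 0.0221). At an unadjusted p under 0.05 (limma) 9 of the 12 differed. In liver 3 of the 12 fell, against 6.4% of all genes tested, and in muscle none passed the test. The median effect of the 12 was -0.17 in liver and 0.18 in muscle. The summed level of the 19 in liver was 115.3, 239 and 541 scaled TPM (lowest, median and highest) in high-fat mice and 135.2, 293 and 760.0 in control mice. In muscle it was 72.8, 212 and 1201 in high-fat mice and 32.6, 178 and 840.3 in control mice. The Kupffer cell gene Clec4f had a median of 0 in muscle. The part of macrophage RNA in the Ccl9 difference was not tested. Of the other marker lists, the hepatocyte list (12 of 16 tested) had 1 called difference, Cyp2e1, which was above 0. Of its 12 differences 3 were above 0 and 9 below 0 (median -0.17), and in liver 1 member rose and 5 fell. No difference was called (limma) for the 11 endothelial markers tested of 11, the 6 erythrocyte of 8, the 3 muscle fibre of 16, the 1 slow-fibre of 10 and the 3 adipocyte of 12, of which 2 endothelial markers and 1 adipocyte marker had an unadjusted p under 0.05. The 3 adipocyte markers tested rose in liver, with differences above 0 (median 0.34). Of the 12 listed, 7 had a median of 0 in liver, among them Adipoq, Lep, Retn, Cfd and Plin1, so the 3 do not describe adipocyte content there. No lymphocyte or neutrophil marker was tested.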

How the data were processed

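The deposited liver and muscle tables hold TPM made by the authors, each column scaled to the same total over 47643 genes. Tools listed in the submitters' processing notes are FastQC, Trim Galore 0.4.4 and Bowtie 1.2.2. How TPM were computed, on which build and annotation, is not given in the sources used here. Libraries came from a stranded total RNA kit on MiSeq, per the labels' protocols. Gene IDs were matched to GENCODE M21 (99.1% matched).

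Libraries under 8000 genes at 1 TPM were left out: 11 of 75 high-fat and 10 of 74 control livers, and 5 of 75 high-fat and 1 of 74 control muscles (two-sided Fisher's exact p = 1 and p = 0.209). Within each tissue, libraries were scaled by a trimmed mean of log ratios over protein-coding nuclear genes, Lars2 left out (0.3 of ratios and 0.05 of levels trimmed). Genes needed a scaled TPM of 1 or more, in each tissue, in a number of libraries equal to 0.7 of the smaller diet group. The liver-minus-muscle difference of log2(scaled TPM + 1) of each mouse was fitted by diet with limma 3.58.1 in R 4.3.3 (eBayes with trend and robust), two-sided, Benjamini-Hochberg threshold 0.05. Tissue effects were fitted the same way. The fit of the difference was also run on simulated data, and its outcome is not reported here. Both tissues of a mouse carry its number in the labels: over 150 genes chosen on the other part of the mice, 121 of 122 livers correlated best with the muscle of their own number (median r = 0.861). Mouse 45 did not match and its labels were kept.

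Genes named were the 10 largest differences in each direction whose mean reached 5 scaled TPM in either tissue and no predicted or clone name, the called genes of opposite directions, up to 3 called members of each list (1 of each marker list), and Scd1, Srebf1, Mlxipl, Pdk4, Cpt1a, Cpt1b, Plin5, Dbp, Arntl and Nr1d1. For any other gene the text states that it was picked with its values in view. Some genes that this rule names are not reported here. The members, lists and rules were chosen with earlier results of these data known. Permutation tests of library properties used 100000 resamples. Intervals are 95%. Of 18 alternative analyses 3 were chosen after seeing the data: without mice carrying markers of the other tissue, and with an adipocyte or a slow-fibre covariate.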

Additional observations from a re-analysis of the deposited data

Results flagged for a closer look

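The diet effect differed between liver and muscle, by the test of the difference itself, for 581 genes.

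The 9 genes that changed in opposite directions in the 2 tissues are listed here with the liver effect minus the muscle effect on the log2 scale. Gpam had -1.11, Ccl9 had -1.21 and Rhobtb1 had -0.52. Aimp2 had 0.59, Gstk1 had 0.55, Ppm1k had 0.54, Celf2 had 0.52, Isoc2a had 0.38 and Aldh6a1 had 0.31.

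Mouse 80, used in 1 alternative analysis and in no main comparison, had 26.8% skeletal muscle fibre markers of coding TPM in the library labelled liver and 12.9% hepatocyte markers in the library labelled muscle, against at most 1.504% and 1.97% in the mice used.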

How the results depend on the processing

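Of the 78 genes named whose difference passed, none changed direction where an alternative gave it a value, which was for 56 with a minimum mean of 5, 76 with all libraries and 78 in each of the other 16 alternatives. Of the 18, 3 were chosen after seeing the data. The number of genes with a difference was 50 with TPM as deposited, 348 with mouse 80 kept and 365 with a minimum mean of 5 scaled TPM per tissue, against 581. As a percent of genes tested, those above 0 were then 0.135%, 1.21% and 2.96%, and 3.9% with limma's array weights, against 2.56%. Those below 0 were 0.315% with TPM as deposited and 3.08% with the minimum mean of 5, against 2.73%. The minimum mean left 6048 genes to test, so its counts of 179 and 186, against 281 and 300, come with a larger share. Genes of opposite directions numbered 1 with TPM as deposited, 5 with mouse 80 kept, 5 with no expression minimum, 15 without livers whose label carries a second number and 24 with array weights, against 9. All 12384 genes tested in liver gave 1723 called, and 245 with TPM as deposited. Of 13520 genes tested in muscle, the count called was 28 with TPM as deposited, 258 without the second-number livers, 378 with array weights and 254 with the adipocyte covariate. For 2 genes whose difference was close to 0 the sign turned: Cpt1a had 0.0047 with both tissues scaled together, 0.1342 with a pseudocount of 5 and 0.0088 without mice carrying markers of the other tissue. Fasn had 0.0058 with all libraries, 0.0277 with a pseudocount of 0.1, 0.0224 without the mouse that did not match and 0.0503 without mice carrying markers of the other tissue. In these the cause was not tested. Without the replicate block (mouse number) 457 genes differed, 217 above 0 and 240 below 0, of which 450 were among the 581. Of the 78 named genes 65 passed without the block, 28 with TPM as deposited and 57 with mouse 80 kept. Scd2 lost its call in 10 alternatives, Hsph1 in 9, Dbp in 8 and Rian in 7. Depth is unknown, so the counting error of low levels cannot be given.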

Other observations

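Breakdown of branched-chain amino acids was looked at after values were seen, because Ppm1k and Aldh6a1 were among the genes with opposite directions. The list of 22 genes was drawn up at that point, so its counts are a description with no test of the list. All 22 were tested, 7 differences were called, each above 0, and these included Ppm1k and Aldh6a1. Over all genes tested 2.56% were called above 0. The median difference was 0.16 against 0.0083 over all genes tested. In liver 5 members rose and none fell, and in muscle 8 fell and none rose, where 7.01% of all genes tested rose in liver and 0.355% fell in muscle. Bckdhb, a subunit of the branched-chain keto acid dehydrogenase, was at 37.7, 64.2 and 102.8 scaled TPM in high-fat livers and 35.7, 58.5 and 96.9 in control livers. In muscle it was at 11.4, 20.7 and 34.3 scaled TPM in high-fat muscles and 11.97, 24.5 and 44.8 in control muscles, with 46 of 59 high-fat livers and 15 of 59 high-fat muscles above the control median, and its difference was 0.39 ± 0.07 (limma, adjusted p = 1.49e-05). Another subunit, Dbt, fell in muscle by 0.26 and had 0.015 ± 0.05 in liver (difference 0.28 ± 0.07), and the transaminase Bcat2, which starts the pathway in muscle, fell there by 0.25 and had 0.05 ± 0.06 in liver (difference 0.30 ± 0.09). Mccc1, a carboxylase subunit of leucine breakdown, differed by 0.33 ± 0.09 and Hsd17b10, a dehydrogenase of isoleucine breakdown, by 0.38 ± 0.09. The dehydrogenase subunit Bckdha (0.07 ± 0.07) and the inhibitory kinase Bckdk (0.06 ± 0.08) did not pass.

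Glul and Stom, further genes that passed in muscle and not in liver, were also named after their values were seen. Glul, the glutamine synthetase, fell in muscle by 0.31 and had 0.18 ± 0.08 in liver (difference 0.49 ± 0.11, limma, adjusted p = 0.00158). Stom, a membrane protein of the stomatin family, rose in muscle by 0.42 and had -0.14 ± 0.06 in liver (difference -0.55 ± 0.09, adjusted p = 2.32e-06).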
